A study of Homo sapiens with 6 samples.

Results

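The 8 genes described here are ZIC1, ZIC2, ZIC4 and ZIC5 of the ZIC family and SALL1, SALL2, SALL3 and SALL4 of the SALL family, found by symbol among the 60623 genes of a bulk RNA-seq count table. They were chosen by their read counts in the shSTN1 and control libraries compared below, so these values are given as a description, with no test. The table held 6 libraries, all labelled as PANC-1, a human cell line from a pancreatic ductal carcinoma grown in DMEM with serum. The labels give 3 libraries with a short hairpin RNA against STN1 (shSTN1) and 3 with a control hairpin, called biological replicates, and say nothing of separate clones or of the control hairpin's target. The genotype field gives the control libraries as WT and names STN2 or STN3 in place of STN1 for 2 of the shSTN1 libraries, and the titles were followed.

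ZIC and SALL proteins are transcription factors that bind DNA through zinc fingers of the C2H2 type. ZIC proteins carry a block of such fingers related to that of the GLI factors of Hedgehog signalling, and act in the neural plate, neural crest and cerebellum. ZIC genes lie in head-to-head pairs, ZIC1 with ZIC4 and ZIC2 with ZIC5. SALL proteins carry zinc fingers spread along the protein and a short N-terminal motif that recruits the NuRD deacetylase complex. SALL1 acts in nephron progenitors of the kidney, SALL4 in pluripotent and germ cells, and SALL2 has been studied as a regulator of growth arrest.

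The stretches of DNA before the starts of 4 of the genes are shown, because these 4 genes were lower in the libraries labelled shSTN1, from no reads there for SALL3 to 63.8% of control for ZIC2. They are RefSeq promoter sequences (GRCh38.p14), read 5′ to 3′ on the strand of the gene, from 250 bases before the RefSeq start and ending at that start or at the first annotated base of the gene in GENCODE 29. Capitals mark GGGCGG (GC box), CCAAT and TATAAA on either strand, and some GC boxes overlap. The SALL3 stretch is chr18:78979568-78979817 (+), the SALL2 stretch chr14:21537217-21537371 (-), the ZIC2 stretch chr13:99981534-99981771 (+) and the ZIC5 stretch chr13:99971910-99972159 (-).
SALL3: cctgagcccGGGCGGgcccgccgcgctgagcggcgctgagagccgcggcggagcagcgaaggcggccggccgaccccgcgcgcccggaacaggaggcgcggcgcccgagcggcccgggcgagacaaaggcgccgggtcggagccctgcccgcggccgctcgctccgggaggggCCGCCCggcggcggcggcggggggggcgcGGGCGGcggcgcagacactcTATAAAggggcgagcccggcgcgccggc
SALL2: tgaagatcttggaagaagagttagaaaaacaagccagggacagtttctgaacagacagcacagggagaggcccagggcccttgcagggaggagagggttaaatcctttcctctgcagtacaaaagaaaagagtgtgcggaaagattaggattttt
ZIC2: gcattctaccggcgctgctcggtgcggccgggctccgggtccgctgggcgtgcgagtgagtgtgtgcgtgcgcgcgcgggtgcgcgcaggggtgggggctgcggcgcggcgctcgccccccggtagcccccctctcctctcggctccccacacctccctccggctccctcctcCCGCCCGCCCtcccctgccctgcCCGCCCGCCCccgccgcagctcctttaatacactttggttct
ZIC5: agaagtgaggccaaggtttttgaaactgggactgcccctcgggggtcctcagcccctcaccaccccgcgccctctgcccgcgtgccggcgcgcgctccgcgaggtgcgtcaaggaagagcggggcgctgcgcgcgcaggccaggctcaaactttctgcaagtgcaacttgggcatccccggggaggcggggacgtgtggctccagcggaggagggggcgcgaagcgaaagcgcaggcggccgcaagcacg

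Among the windows of 250 bases of the 6 genes with an entry, the number of CG dinucleotides ran from 3 for SALL2 to 49 for SALL3, where the median of 35116 RefSeq windows was 11. ZIC2 had 31, ZIC5 28, ZIC1 23 and ZIC4 9. The SALL3 window held 3 GC boxes and a TATAAA that began 28 bases before the start. The ZIC2 window held 4 GC boxes, and the ZIC1 window 2 GC boxes and 2 CCAAT motifs. The SALL2, ZIC4 and ZIC5 windows held none of these 3 motifs. Of all RefSeq windows, 42.6% held a GC box, 32% a CCAAT and 10.7% a TATAAA. SALL1 and SALL4 had no entry.

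The control libraries held 17357223 to 20660453 counted reads and the shSTN1 libraries 18813591 to 23336942. STN1 itself (chromosome 10, positions 103882542 to 103918205), the target of the hairpin and a subunit of a complex that binds telomeric DNA, had 387, 346 and 278 reads in control and 303, 306 and 275 reads in the shSTN1 libraries. Its level was 16.4 ± 1.95 against 14.8 ± 0.793 CPM (counts scaled to library size by TMM, mean ± SD, n = 3 each, as throughout), and the groups overlapped. The edgeR log2 fold change was -0.15 with an adjusted p of 0.253, and p was 0.3 in a two-sided exact permutation test, whose smallest possible value here is 0.1. STN1 thus does not separate the labels, and groups are named below by their labels. Of 17451 genes tested, 74.1% passed an edgeR adjusted p of 0.05, 35.6% higher and 38.5% lower in the libraries labelled shSTN1. The labels do not say that replicates were separate cultures, and the spread on which p-values rest may therefore be technical.

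Markers of the labelled line and of other cell types differed between the groups as well, so the libraries may not all be what their labels say. Of 16 markers of pancreatic carcinoma lines, 13 were tested and all 13 were higher in the libraries labelled shSTN1, with a summed level of 6973 to 7117 CPM against 1120 to 1187 CPM in control. The ductal keratin gene KRT7 had 0.357 ± 0.0661 CPM (control) and 2.77 ± 0.116 CPM in the libraries labelled shSTN1, and KRT19 had 175 ± 12.2 and 982 ± 10.4 CPM. CEACAM6 and S100P were too low to test, at no more than 0.279 CPM in either group. Of 7 markers chosen for embryonic kidney lines, 6 were lower and PAX2 was higher, with a summed level of 91.4 to 95.0 CPM against 679 to 786 CPM in control. The neurofilament gene NEFM had 8407 reads in control and 4 in the libraries labelled shSTN1, and the adaptor gene IRS4 20505 and 3. Leukocyte markers summed to at most 5.41 CPM, with CD3E at 0, and endothelial markers to at most 2.49 CPM, with PECAM1 at 0. Fibroblast markers summed to 64.1 to 78.3 CPM in control and 145 to 161 CPM in the libraries labelled shSTN1, with DCN at 0 in the latter. Whether each library holds the cells its label names was not tested. The part of these markers in the differences of the ZIC and SALL genes was not tested.

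All 8 ZIC and SALL genes passed the filter on low counts. After TMM scaling, the groups did not overlap for 6 of them. SALL1, SALL2, SALL3, ZIC2 and ZIC5 were lower and SALL4 higher in the libraries labelled shSTN1. The groups overlapped for ZIC1 and ZIC4, both near the limit of detection. Of all genes tested, 39.0% lay lower and 36.6% higher without overlap, so these counts say nothing particular about the 8 genes. In bulk RNA, fewer cells that express a gene and less RNA per cell cannot be told apart.

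**Figure D1:**
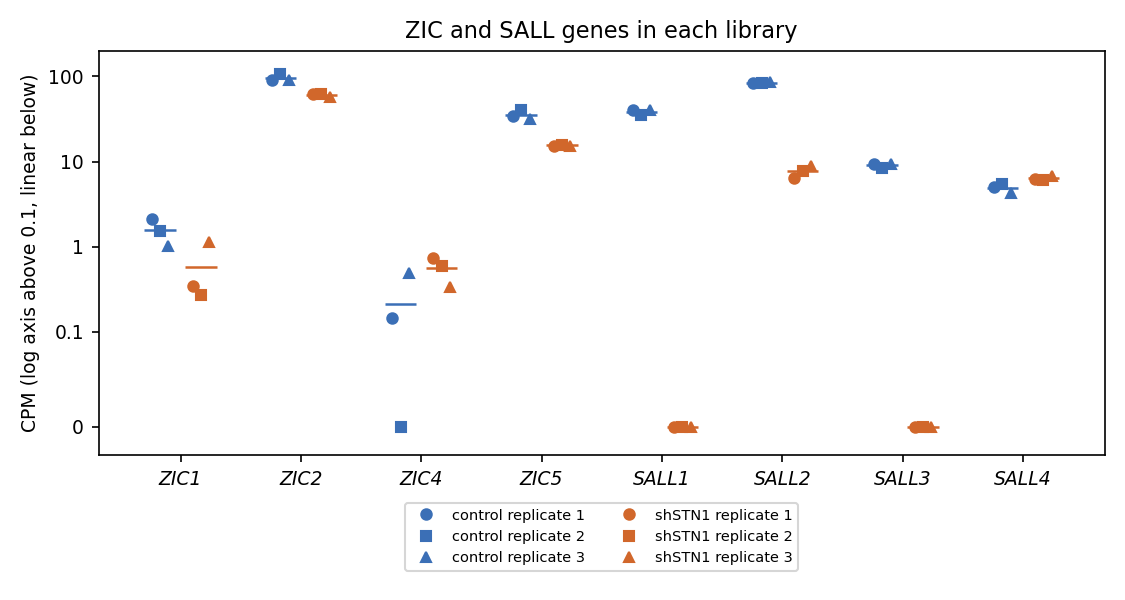
CPM of each ZIC and SALL gene (vertical axis, logarithmic above 0.1 and linear below) in the 3 control libraries (blue) and the 3 libraries labelled shSTN1 (orange), with a symbol per replicate number and a bar at the group mean. SALL1 and SALL3 lie at 0 in all 3 libraries labelled shSTN1, ZIC2 is at least 58.05 CPM in every library, and ZIC1 and ZIC4 overlap between the groups.

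SALL1 (ENSG00000103449.11, chromosome 16, positions 51135975 to 51151367 on the minus strand) encodes a repressor needed for kidney formation, whose truncation causes Townes-Brocks syndrome. In control it had 842, 794 and 736 reads, against 0 reads in each of the libraries labelled shSTN1. The control level was 38.6 ± 2.72 CPM. A floor of 3 reads over the 3 libraries without reads corresponds to 0.0501 CPM, so SALL1 was at least 769-fold lower. That bound covers counting error only.

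SALL3 (ENSG00000256463.8, chromosome 18, positions 78980275 to 79002677 on the plus strand), a close relative of SALL1 with a part in neural and limb development, showed the same pattern at a lower level. It had 193, 188 and 173 control reads, or 9.02 ± 0.533 CPM, and 0 reads in all 3 libraries labelled shSTN1. The difference was at least 180-fold by the same floor. The lack of reads in all 3 libraries was shared by 1.32% of the genes tested, and for SALL1 and SALL3 it is the pattern for which they were chosen.

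SALL2 (ENSG00000165821.12, chromosome 14, positions 21521081 to 21537216 on the minus strand) is the most divergent SALL protein. It was the most abundant SALL gene in control per length of exon, with 1721, 1857 and 1576 reads, and had 132, 170 and 157 reads in the libraries labelled shSTN1. This amounted to 83.8 ± 1.41 against 7.71 ± 1.23 CPM, or 9.21% of control. The difference of mean log2 CPM was -3.44 (SE 0.134). SALL2 therefore kept a measurable level where SALL1 and SALL3 had no reads.

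SALL4 (ENSG00000101115.13, chromosome 20, positions 51782331 to 51802520 on the minus strand), a factor of embryonic stem cells that is re-expressed in some carcinomas, was the only SALL gene higher in the libraries labelled shSTN1. Its reads were 104, 121 and 78 in control and 128, 132 and 118 in the libraries labelled shSTN1. After scaling these were 5.01, 5.41 and 4.23 CPM against 6.25, 6.05 and 6.70 CPM. The lowest library labelled shSTN1 exceeded the highest control library by little, and the mean was 1.30-fold higher (log2 difference 0.37, SE 0.112). The lack of overlap depended on the TMM scaling. As a share of all counted reads, control replicate 2 (121 of 20660453) lay above shSTN1 replicates 1 and 2 (128 of 22153769 and 132 of 23336942). The 6 annotated SALL pseudogenes had 0 reads in all libraries.

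ZIC2 (ENSG00000043355.12, chromosome 13, positions 99981772 to 99986773 on the plus strand), whose loss of function causes holoprosencephaly, was the most abundant of the 8 genes per length of exon in both groups. It had 1864, 2369 and 1681 reads in control and 1289, 1351 and 1023 in the libraries labelled shSTN1. This amounted to 95.6 ± 9.03 against 61.0 ± 2.58 CPM, or 63.8% of control (log2 difference -0.64, SE 0.0846). Among the genes lower without overlap, it showed the smallest difference of the 5.

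ZIC5 (ENSG00000139800.8, chromosome 13, positions 99962964 to 99971909 on the minus strand) starts 9863 bases from ZIC2 and is transcribed away from it. It had 713, 900 and 584 control reads and 314, 344 and 271 reads in the libraries labelled shSTN1. This amounted to 35.4 ± 4.42 against 15.5 ± 0.234 CPM, or 43.8% of control (log2 difference -1.18, SE 0.103). Control replicate 2 was the highest library for ZIC2 and for ZIC5 alike. Per kilobase of exon, ZIC2 exceeded ZIC5 3.66, 3.69 and 4.03 times in control and 5.75, 5.50 and 5.29 times in the libraries labelled shSTN1. The genes of this pair were thus lower by unequal amounts, and their ratio did not overlap between groups.

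ZIC1 (ENSG00000152977.10, chromosome 3, positions 147393422 to 147510293 on the plus strand), a factor of cerebellar granule cell precursors, had 44, 34 and 19 reads in control. It had 7, 6 and 20 reads in the libraries labelled shSTN1, the last of them level with the lowest control library. These were 2.12, 1.52 and 1.03 CPM against 0.342, 0.275 and 1.14 CPM. The log2 difference was -1.44 with an SE of 0.608, and -1.97 without shSTN1 replicate 3.

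ZIC4 (ENSG00000174963.17, chromosome 3, positions 147386046 to 147406860 on the minus strand) is the partner of ZIC1. It had 3, 0 and 9 reads in control and 15, 13 and 6 reads in the libraries labelled shSTN1, the fewest reads of the 8 genes over all 6 libraries. The log2 difference was 1.39 with an SE of 0.791, and the groups overlapped. It was 0.73 without control replicate 2 and 2.04 without control replicate 3. The spans of ZIC1 and ZIC4 share 13439 bases on opposite strands, and the strand setting of the counting is not given in the sources used here, so reads in the shared part cannot be told apart. The antisense gene ZIC4-AS1 had 0 reads.

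Levels were compared between genes as CPM per kilobase of annotated exon. In control the order was ZIC2 (28.9 ± 2.73), SALL2 (15.6 ± 0.263), ZIC5 (7.63 ± 0.952), SALL1 (6.83 ± 0.480), SALL3 (1.22 ± 0.0720), SALL4 (0.846 ± 0.105), ZIC1 (0.229 ± 0.0801) and ZIC4 (0.0246 ± 0.0292). Of the neighbours in that order, ZIC5 and SALL1 overlapped between libraries and the others did not. In the libraries labelled shSTN1 the order was ZIC2 (18.4 ± 0.779), ZIC5 (3.34 ± 0.0504), SALL2 (1.43 ± 0.229), SALL4 (1.10 ± 0.0575), ZIC1 (0.0858 ± 0.0703) and ZIC4 (0.0649 ± 0.0232), with SALL1 and SALL3 at 0. There ZIC1 and ZIC4 overlapped. SALL2 and SALL4, with 3 genes between them in the control order, lay next to each other without overlap.

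On this scale the summed ZIC level was 36.8 ± 3.61 in control and 21.9 ± 0.747 in the libraries labelled shSTN1. The summed SALL level was 24.5 ± 0.590 against 2.53 ± 0.269. ZIC2 made up 77.8% to 79.7% of the ZIC sum in control and 83.3% to 84.7% in the libraries labelled shSTN1. The composition of the SALL sum differed more. SALL1 made up 26.4% to 29.02% of it in control and none in the libraries labelled shSTN1, while SALL4 made up 2.94% to 3.94% and 41.2% to 47.5%. The larger share of SALL4 came with a 1.30-fold higher SALL4 level and a SALL2 level at 9.21% of control.

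**Figure D2:**
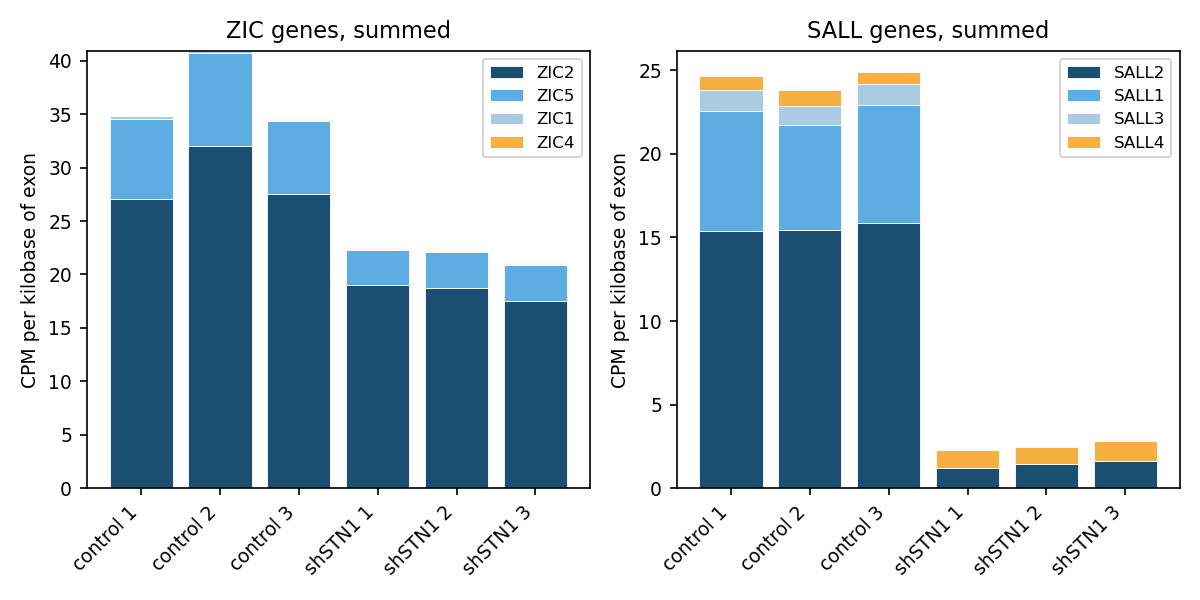
CPM per kilobase of exon (vertical axis, from 0) of the ZIC genes (left) and the SALL genes (right), stacked by gene in each of the 6 libraries. The ZIC sum is mostly ZIC2 in every library, and the SALL sum is at least 23.8 in the control libraries and at most 2.82 in the libraries labelled shSTN1, where it holds SALL2 and SALL4 alone.

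The genes whose levels over the 6 libraries lay nearest to those of the leading member of each family were sought by the Euclidean distance of centred log2 CPM among 11619 protein-coding genes. Nearest to ZIC2 were ATP6V1A, a subunit of the vacuolar proton pump (distance 0.0719, 81.9 ± 8.17 against 51.7 ± 2.52 CPM), the semaphorin co-receptor gene NRP2 (0.0919, 36.4 ± 4.49 against 23.5 ± 0.623 CPM) and the growth factor gene FGF2 (0.0956, 11.4 ± 1.03 against 7.46 ± 0.476 CPM). Nearest to SALL2 were CARMIL2, a regulator of actin capping (0.166, 34.2 ± 2.34 against 2.93 ± 0.391 CPM), the secreted glycoprotein gene FSTL1 (0.187, 117 ± 3.02 against 10.7 ± 0.809 CPM) and LINGO1, a Nogo receptor component (0.228, 38.9 ± 2.77 against 3.53 ± 0.389 CPM). With 6 libraries in 2 groups, such likeness rests mainly on the difference between the groups.

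Genes near the 8 genes were examined because the choice of the ZIC and SALL genes did not use their position. Within 500 kb of a start lay 145 other genes, of which 24 were tested. By edgeR at an adjusted p of 0.05, 6 were higher, 12 lower and 6 did not pass, and their median log2 fold change was -0.19, where that of all genes tested was -0.03. The share past the threshold, 18 of 24, was near the 74.1% of all genes.

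Around SALL3, the nearest tested gene was LINC01896, a noncoding RNA that starts 1.2 kb upstream and runs the other way. It had 23, 24 and 19 control reads and 0 reads in the libraries labelled shSTN1 (edgeR adjusted p = 4.44e-08), at least 21.4-fold lower. The next genes were higher. ATP9B, which encodes a phospholipid flippase 89.0 kb downstream, rose from 15.6 ± 0.719 to 42.9 ± 3.26 CPM (log2 fold change 1.46, edgeR adjusted p = 7.22e-15). The transcript AC125437.1, annotated as intronic and lying inside ATP9B on the same strand, was at 1.72 (edgeR adjusted p = 5.46e-04). Its reads cannot be told apart from those of unspliced ATP9B RNA. NFATC1, a calcium-regulated transcription factor gene 415.6 kb away, was at 0.44 (edgeR adjusted p = 9.07e-06). Of the 4 tested neighbours of SALL3, its divergent neighbour was thus lower and the other 3 higher, though AC125437.1 and ATP9B are not separate loci.

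Around SALL1 the nearest tested genes were far away. HNRNPA1P48 (402.1 kb upstream, log2 fold change -1.08, edgeR adjusted p = 1.36e-06) and the deubiquitinase gene CYLD (409.3 kb downstream, -0.74, edgeR adjusted p = 9.95e-07) were lower. On the opposite strand and with starts inside the span of SALL1, the antisense RNA AC009166.1 had 8, 7 and 8 control reads and the long noncoding RNA AC087564.1 had 6, 3 and 7. Both had 0 reads in the libraries labelled shSTN1 and were too low to test. Their reads cannot be told apart from those of SALL1 where they overlap it.

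SALL2 lies among 11 tested genes, of which 6 were lower and 5 did not pass. The nearest was METTL3, the catalytic subunit of the RNA m6A methyltransferase (25.8 kb away), with a log2 fold change of -0.27 (edgeR adjusted p = 0.00214). The next, RAB2B and TOX4, had values of 0.09 and -0.01 and did not pass. SUPT16H, a subunit of the histone chaperone FACT, was at -0.90 and the growth suppressor gene NDRG2, 466.3 kb away, at -3.92. The value of SALL2 itself, -3.44, was thus not shared by the genes next to it.

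Near SALL4, the flippase gene ATP9A (33.9 kb away) was lower at -0.39 (edgeR adjusted p = 9.90e-05), NFATC2 higher at 1.22 (1.32e-07) and the zinc finger gene ZFP64 lower at -0.72 (5.82e-09). Near ZIC2 and ZIC5, PCCA-DT was higher at 0.95 (edgeR adjusted p = 3.95e-06), the metabolic enzyme gene CLYBL lower at -1.33 (1.11e-06), and PCCA, a subunit of propionyl-CoA carboxylase, did not pass at -0.07. None of the 7 genes near ZIC1 and ZIC4 had enough reads to be tested.

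**Figure D3:**
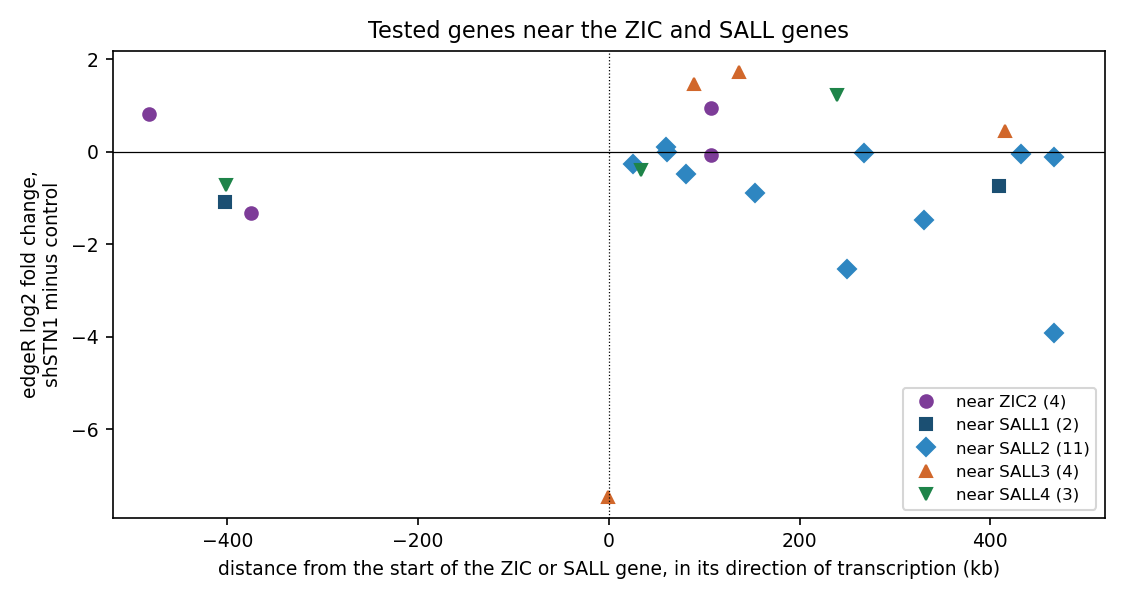
edgeR log2 fold change, shSTN1 minus control (vertical axis), of the 24 tested genes within 500 kb of a ZIC or SALL gene, against the distance of their start from the start of that gene in kilobases (horizontal axis, positive in the direction of transcription). Genes near ZIC2 and ZIC5 are drawn once, from the start of ZIC2. LINC01896, 1.2 kb upstream of SALL3, lies lowest, at a fitted value that depends on the prior count because it had no reads in the libraries labelled shSTN1, and genes near SALL2 spread from 0.09 to -3.92.

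The zinc finger factors related to ZIC by sequence include the GLI factors, which carry out Hedgehog signalling, and the GLIS factors. Of 7 genes, all tested, edgeR called 2 higher and 3 lower, a share near the 74.1% of all genes, and the median log2 fold change was -0.62. GLI3, the main repressor of the pathway, fell from 42.8 ± 3.98 to 2.25 ± 0.268 CPM and GLI2 from 33.1 ± 1.93 to 9.34 ± 0.847 CPM. GLI1, itself a target of the pathway, rose from 14.4 ± 1.07 to 25.3 ± 0.579 CPM, and GLIS2 rose from 26.0 ± 1.84 to 63.7 ± 2.80 CPM. The edgeR adjusted p of these 4 genes ran from 1.61e-23 for GLI3 to 3.32e-08 for GLI1.

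Hedgehog ligands, receptors and transducers were mostly lower. Of 14 tested genes, 11 were lower, 2 higher and 1 did not pass, where 74.1% of all genes tested passed and 38.5% were lower. The median was -1.72 against -0.03 for all genes. The signal transducer SMO fell from 77.4 ± 4.10 to 15.6 ± 1.60 CPM (log2 fold change -2.31) and the receptor PTCH1 from 37.9 ± 3.87 to 6.40 ± 0.544 CPM (-2.56). The kinesin gene KIF7 (-2.33) and the co-receptor gene GAS1 (-7.16, 43.8 ± 2.97 to 0.291 ± 0.150 CPM) fell as well. The ligand SHH rose from 3.90 ± 1.32 to 27.2 ± 0.911 CPM. The edgeR adjusted p of these genes ran from 1.42e-25 for GAS1 to 3.20e-17 for SHH. The ligands IHH and DHH were too low to test.

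The NuRD complex, to which the N-terminal motif of SALL proteins binds, had subunits that were higher and subunits that were lower. Of 15 genes, all tested, 9 were lower, 3 higher and 3 did not pass, a share called near the 74.1% of all genes. The median was -0.19. The histone-binding subunit gene RBBP7 fell from 295 ± 19.2 to 157 ± 5.07 CPM (-0.91) and GATAD2B from 96.6 ± 7.11 to 52.2 ± 3.16 CPM (-0.89). CHD5, a remodeller subunit known from neurons, rose from 56.9 ± 3.98 to 265 ± 6.20 CPM (2.22) and CDK2AP1 from 138 ± 8.76 to 292 ± 11.1 CPM (1.08). The deacetylase genes HDAC1 (-0.10) and HDAC2 (-0.06) did not pass. The edgeR adjusted p of the 4 genes called lay between 7.01e-24 for CHD5 and 4.65e-12 for GATAD2B.

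Pluripotency and germ cell factors, with which SALL4 acts in stem cells, were tested for 8 of 18 genes, and 6 of the 18 had no reads in any library, NANOG among them. Of the 8, 6 were lower and 2 did not pass, a share called near the 74.1% of all genes, of which 38.5% were lower. The median was -1.70. LIN28B, which blocks let-7 microRNA maturation, fell from 74.8 ± 8.85 to 6.45 ± 1.15 CPM, the DNA methyltransferase gene DNMT3B from 104 ± 5.56 to 26.4 ± 1.67 CPM, and TRIM71 from 17.01 ± 0.183 to 0.380 ± 0.103 CPM. UTF1 was at 4.97 ± 1.11 against 0.0873 ± 0.0852 CPM. Their edgeR adjusted p ran from 4.31e-23 for LIN28B to 8.69e-14 for UTF1. Among the genes too low to test, LIN28A had 2 reads in control and 27 in the libraries labelled shSTN1. ZSCAN10 went the other way, with 21 and 6 reads. SALL4 itself was 1.30-fold higher in the same libraries.

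Nephron progenitor and early kidney factors, the setting in which SALL1 is best known, had 10 of 16 tested genes lower, 3 higher and 3 that did not pass, where 74.1% of all genes passed and 38.5% were lower. The median was -1.42. SIX2, which keeps nephron progenitors undifferentiated, fell from 49.6 ± 1.89 to 0.344 ± 0.179 CPM, FOXC1 from 180 ± 13.6 to 23.6 ± 1.72 CPM, HOXD11 from 19.4 ± 3.68 to 0.341 ± 0.0986 CPM and HOXA11 from 18.9 ± 2.09 to 1.496 ± 0.189 CPM. Their edgeR adjusted p ran from 5.66e-26 for SIX2 to 4.08e-19 for HOXA11. PAX2, another kidney factor, rose from 24.2 ± 0.742 to 62.5 ± 1.96 CPM (edgeR adjusted p = 1.02e-15), and WT1 had 9.28 ± 0.922 CPM (control) and 9.21 ± 0.638 CPM in the libraries labelled shSTN1 and did not pass.

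Factors of the neural plate border, neural crest and hindbrain, where ZIC genes are best known, had 12 of 15 tested genes lower and 3 higher, where 38.5% and 35.6% of all genes were. The median was -3.09. PAX3, a neural crest factor, had 806 reads in control (13.0 ± 1.32 CPM) but 0 in the libraries labelled shSTN1, at least 261-fold lower. SNAI2 fell from 23.3 ± 2.09 to 0.516 ± 0.103 CPM, MSX1 from 47.6 ± 1.43 to 8.63 ± 0.446 CPM and MSX2 from 37.2 ± 1.48 to 7.22 ± 0.660 CPM. The edgeR adjusted p of these genes ran from 2.79e-22 for SNAI2 to 5.88e-19 for MSX2. SOX9, which is also a duct cell factor, rose from 54.6 ± 13.8 to 255 ± 27.0 CPM (edgeR adjusted p = 5.47e-06). The cerebellar factor gene ATOH1 had 62 control reads and 0 reads in the libraries labelled shSTN1.

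SALL4 protein is degraded through the cereblon ubiquitin ligase in the presence of thalidomide-type drugs. Of 10 tested genes of that ligase and its drug-induced substrates, 4 were higher, 4 lower and 2 did not pass, a share called near the 74.1% of all genes. The median was -0.27. CUL4A rose from 89.2 ± 2.82 to 164 ± 10.2 CPM while its paralog CUL4B fell from 140 ± 4.25 to 69.0 ± 5.46 CPM. The substrate CSNK1A1 rose from 145 ± 6.60 to 286 ± 10.2 CPM, and the zinc finger substrate ZBTB16 fell from 6.81 ± 0.515 to 0.0936 ± 0.0917 CPM. Their edgeR adjusted p ran from 4.49e-16 for ZBTB16 to 2.67e-13 for CUL4A. Cereblon itself, CRBN, did not pass at -0.22.

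Of 4 genes reported in the literature as targets of SALL factors, 1 was higher and 3 were lower, where 35.6% and 38.5% of all genes were. BMI1, described as activated by SALL4, fell from 32.0 ± 1.22 to 22.1 ± 1.05 CPM (-0.53). CDKN1A and PMAIP1, described as activated by SALL2, were at -0.39 and -3.53, the latter falling from 123 ± 12.6 to 10.7 ± 0.989 CPM. The edgeR adjusted p of these 3 genes ran from 2.79e-25 for PMAIP1 to 8.67e-05 for CDKN1A. Each of these genes has many other regulators, and binding was not measured here.

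**Figure D4:**
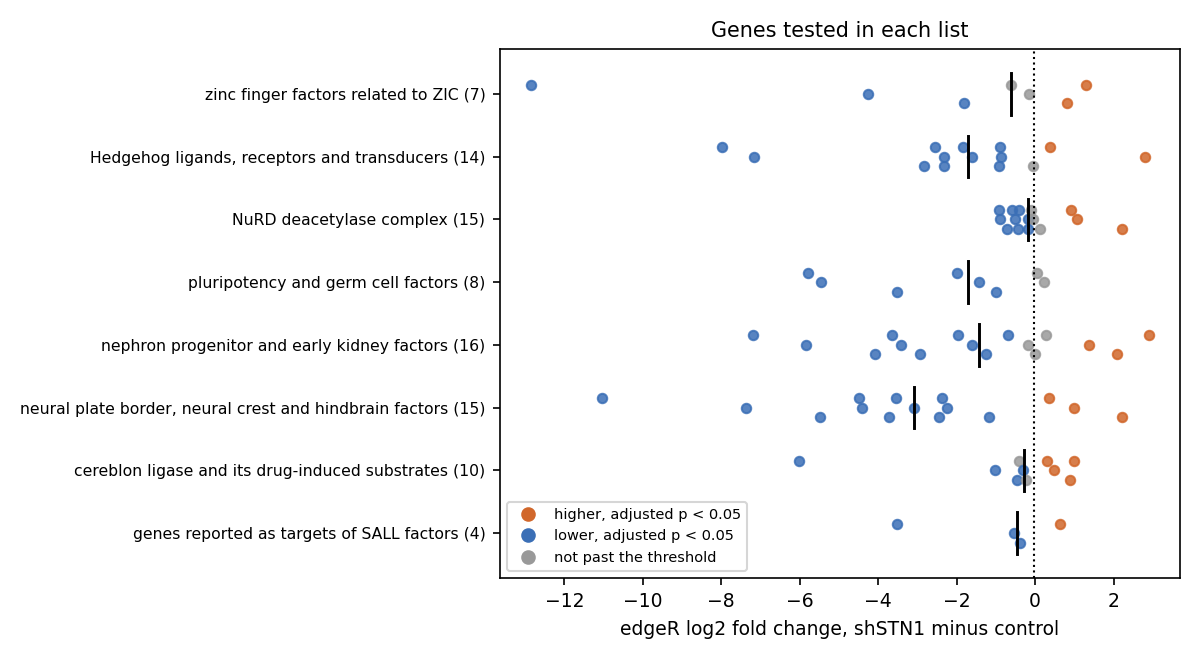
edgeR log2 fold change, shSTN1 minus control (horizontal axis), of the tested genes in each of 8 lists (rows, number tested in parentheses), coloured by the call at an adjusted p of 0.05, with a bar at the median of the list and a dotted line at the median of all genes tested, -0.03. The lowest median is that of the neural list, -3.09, and the NuRD list lies closest to all genes, at -0.19. Fitted values of genes without reads in the libraries labelled shSTN1, such as PAX3 and ATOH1, depend on the prior count.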

How the data were processed

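RNA-seq of 6 libraries labelled as PANC-1 was analysed, 3 with a hairpin against STN1 and 3 with a control hairpin, grouped by their titles. The values are raw counts of reads for each gene, as deposited by the authors, in whole numbers. Per the submitters' processing notes, cutadapt, FastQC, STAR 2.7.2b, featureCounts 2.0.1 and GRCh38 were used. For the annotation release and strand setting, the answer is not given in the sources used here. Of 60668 genes listed, 45 second copies of pseudoautosomal genes were left out, and 58516 of the 60623 kept matched GENCODE 29, which gave positions and exon lengths. The identifier versions of ZIC1, ZIC2, SALL2 and SALL4 differ from that release, so their lengths may differ from the authors' annotation.

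Counts were filtered with filterByExpr, scaled by TMM and fitted with edgeR 4.0.16 (R 4.3.3, robust quasi-likelihood test, shSTN1 against control), with Benjamini-Hochberg adjustment over 17451 genes and a threshold of 0.05. The fit was also run on simulated counts with 50 genes changed at each fold. It recovered 80% of the 1.5-fold and 100% of the 4-fold changes, and 7.11% of its 197 calls were false. Far fewer genes changed there than were called in these data. The simulation therefore does not show how the fit or the scaling behaves here. Log2 differences of the ZIC and SALL genes are differences of mean log2 CPM with a prior count of 2, and folds against no reads use a floor of 3 reads over the 3 libraries. Totals of 17357223 to 23336942 reads set the precision, and floors cover counting error only. Replicates of a group were distinct libraries, with a chi-square of 3.04 to 9.04 per degree of freedom between their counts.

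The ZIC and SALL genes and all lists were chosen with earlier results of these data known. Named genes were all 8 ZIC and SALL genes, up to 4 genes per list with the smallest adjusted p, the 3 nearest tested neighbours within 500 kb, the 3 most similar protein-coding genes of at least 5 CPM, and STN1. GLI1, SHH, HDAC1, HDAC2, LIN28A, ZSCAN10, PAX2, WT1, SOX9, ATOH1, CRBN, KRT7, KRT19, NFATC1, SUPT16H, NDRG2, AC009166.1 and AC087564.1 were chosen after their values were seen. Alternatives were other scalings, filters, gene classes, thresholds, distances and prior counts, DESeq2 1.42.0, limma-voom (limma 3.58.1), the replicate block, and leaving out each library. Some genes of the lists are counted but not reported here by name.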

Additional observations from a re-analysis of the deposited data

How the results depend on the processing

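The number of genes past the threshold, 12929, ranged from 10981 to 13901 under other scalings, filters, thresholds and tools, and from 12586 to 12857 when 1 library was left out. All 120 recomputed list counts stayed within 1.5 times of the reported count, and the NuRD count ranged from 10 to 12 when 1 library was left out. Of the genes near a ZIC or SALL gene, 18 passed within 500 kb, 10 within 250 kb and 38 within 1 Mb, by construction of the window, and 18 to 19 when 1 library was left out. STN1 did not pass under any of 14 alternatives, with adjusted p from 0.12 to 0.693 and log2 fold changes of -0.22 to -0.06 when 1 library was left out. All 128 recomputed log2 differences of the 8 genes kept their sign, and 8 moved by over 1 SD. These were of SALL1 (-12.04 to -7.30) and SALL3 (-9.94 to -5.23), which had no reads in the shSTN1-labelled libraries, so that the value depends on the prior count. Libraries of the same replicate number did not deviate together (correlations of -0.0123, 0.0171 and -0.0337). No large effect shared by number was therefore seen. Whether same-numbered libraries were processed together cannot be told from this, and the labels do not say. With the replicate block 12742 genes passed, 12710 of them also without it, all 8 list counts were as reported, 18 neighbours passed, and STN1 was at -0.15. Low counts limit ZIC1 and ZIC4.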
